A study of Caenorhabditis elegans with 6 samples.

Results

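The centre of the X chromosome of Caenorhabditis elegans is described here as the interval X:6140001-12480000 (build ce11), which holds 6340 kb or 6.32% of the genome. Its members are the bins of 10 kb that lie wholly in this interval and hold at least 60 reads summed over all libraries, and the rule uses only position and this read minimum. All 634 possible bins met that rule, out of 9914 bins of 10 kb with as many reads in the whole genome. At finer resolution 2723 of the 2983 listed bins of 2 kb met it, out of 41117 in all. The study mapped chromatin near the nuclear envelope in early embryos by DamID, in which a DNA adenine methyltransferase (Dam) fused to a protein of interest marks GATC sites wherever that protein touches DNA. The 3 Dam::EMR-1 libraries came from strain BN1470, in which Dam is fused to emerin, and the 3 GFP::Dam libraries came from strain BN1465, in which Dam is fused to a fluorescent protein that is not tethered to the envelope. The labels give both strains the genotype WT, and since each construct sits in its own strain, effects of strain and of construct cannot be told apart. Embryos were collected from 4000 adults per strain after 72 h of growth at 20 °C on bacteria without Dam methylation. The assay started from 200 ng of DNA, and methylated fragments were amplified over 24 PCR cycles. The cell type of every library is labelled EMS, the blastomere that gives rise to endoderm and mesoderm, and the names of the tables carry "med1p", which is not explained in the sources used here. The assay reads genomic DNA and not RNA, so the labelled lineage could not be checked against markers.

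Emerin is a LEM-domain protein of the inner nuclear membrane that works with the lamina in holding chromatin at the nuclear periphery. In C. elegans embryos the arms of the autosomes are anchored there, often through methylated histone H3, while the gene-rich centres lie further inside and carry most broadly expressed genes. On the X chromosome only the left tip is known as a strongly anchored arm, and in hermaphrodites the whole chromosome is bound by the dosage compensation complex, a condensin-like assembly that lowers its transcription. The X chromosome is also poor in genes expressed in the germline.

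Each library held between 15725996 and 22411781 reads. The deposited value is a log2 ratio for each replicate number, and its headers do not say which group is on top; Dam::EMR-1 was assumed to be, as is customary for DamID and as the table names imply. Were the ratio the other way up, the values given for the 2 groups would change places throughout, and so would enriched and depleted. The authors set the mean ratio over all bins to 0, so a bin below 0 has less Dam::EMR-1 methylation relative to GFP::Dam than the average bin of that size. Each table has its own zero, and gene ratios use that of single GATC sites. The constants taken off the 3 ratio columns were 0.88, 0.83 and 0.40 at 10 kb and 0.55, 0.23 and 0.16 at 100 kb. At single sites they were 0.59, 0.34 and 0.16. Ratios and calls of bins of different size and of genes therefore do not share a zero. Reads per library were worked back from the ratios and the read sums, with 1 solution for 96.3% of all 10-kb bins. For single GATC sites, over which the reads of genes were summed, it was 90.2%. In the text a bin or gene is called enriched or depleted when its ratio lies above or below 0 with an adjusted p of at most 0.05 in limma, fitted over the whole table. The labels do not say whether replicates were separate cultures, so p-values measure the spread between these libraries, which may be technical.

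With Dam::EMR-1 as the numerator, the X centre took a smaller part of the Dam::EMR-1 reads than its length and a larger part of the GFP::Dam reads. It held 4.61%, 4.07% and 4.44% of the reads of the Dam::EMR-1 libraries, or 4.38% ± 0.28 (SD, n = 3). The GFP::Dam libraries gave it 8.72%, 8.78% and 8.47%, or 8.66% ± 0.17 (SD, n = 3). The groups did not overlap, and the log2 ratio of the shares was -0.99 ± 0.11 (SD, n = 3), with p = 0.1 in an exact two-sided permutation test of 3 libraries against 3, the smallest p this design allows. The other regions of X showed a smaller gap: the left arm averaged 4.63% in Dam::EMR-1 and 7.59% in GFP::Dam, and the right arm 4.87% and 5.78%. The log2 ratio of the shares was -0.71 ± 0.04 in the left arm and -0.25 ± 0.06 in the right arm (SD, n = 3 each).

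**Figure D1:**
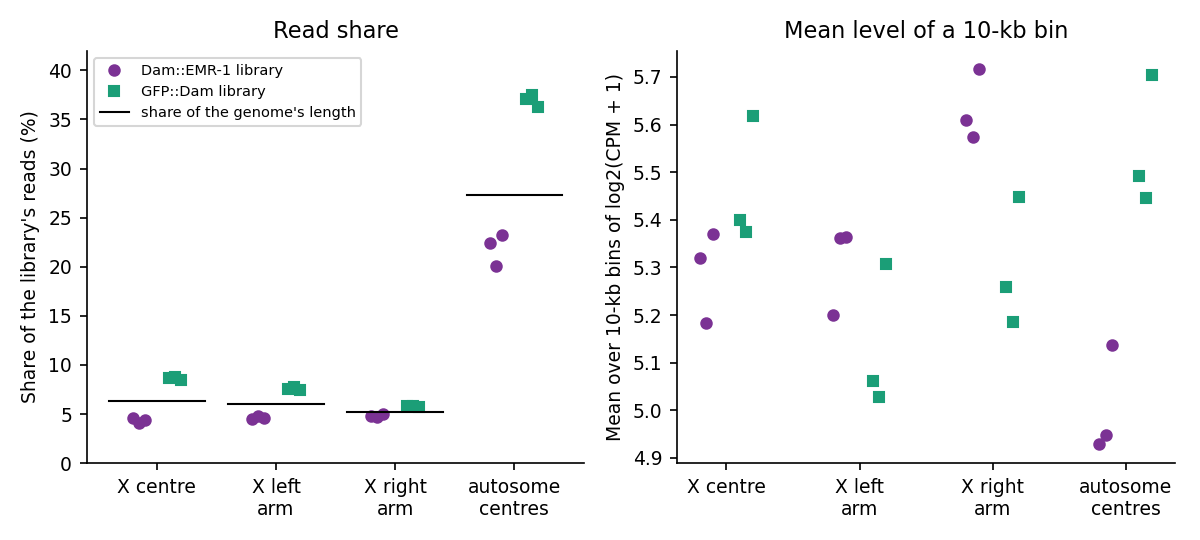
Share of each library's reads in a region (left, percent, with the region's share of the genome's length as a bar) and the mean level of its 10-kb bins on a log2(CPM + 1) scale (right), with 1 point per library, circles for Dam::EMR-1 and squares for GFP::Dam. In the X centre the Dam::EMR-1 libraries lie at 4.07% to 4.61% and the GFP::Dam libraries at 8.47% to 8.78%, on either side of its 6.32% of the genome.

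A few bins carried much of the GFP::Dam signal. The 64 member bins with the most reads in a library, 10% of all members, held 61.6%, 61.2% and 57.2% of the X centre's reads in the GFP::Dam libraries. In the Dam::EMR-1 libraries they held 35.0%, 37.0% and 34.7%. The level of a bin therefore spread more widely in GFP::Dam, with an SD over bins of 2.10 against 1.50 in Dam::EMR-1 on the log2(CPM + 1) scale of group means. In the autosome centres, the middle of 3 equal parts of each autosome, the same SD was 2.06 in GFP::Dam and 1.85 in Dam::EMR-1. In each Dam::EMR-1 library the SD over bins was smaller in the X centre than in the autosome centres, by -0.34 ± 0.05, whereas in each GFP::Dam library it was larger, by 0.04 ± 0.01 (SD, n = 3 each, exact two-sided permutation p = 0.1, the smallest possible). In every Dam::EMR-1 library the level was thus more even along the X centre than along the autosome centres. Against the X arms the SD differed by -0.07 ± 0.06 in Dam::EMR-1, with replicate 1 at 0.003. In GFP::Dam it differed by -0.10 ± 0.03 (exact two-sided permutation p = 0.4). The most-read 10% of bins in the X arms held 59.2%, 59.7% and 55.6% of their reads in GFP::Dam. The values were 41.8%, 39.9% and 38.9% in Dam::EMR-1. In the autosome centres they were 58.5%, 59.6% and 54.7%, and 49.2%, 47.6% and 47.1%.

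The mean log2 ratio over the 634 bins was -0.60, -1.04 and -0.66 in the 3 replicates, or -0.77 ± 0.24 (SD, n = 3). All 3 lay below 0, with p = 0.25 in an exact two-sided sign-flip permutation test, the smallest p that 3 replicates allow. With ratios scaled by the libraries' total reads, which raises every ratio by 0.60 on average, the mean was -0.16 ± 0.09. The zero of the ratio thus sets most of this value, while differences between regions do not depend on it.

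The X centre had a lower ratio than both arms of X. The left arm had a mean ratio of -0.34 ± 0.04 and the right arm -0.21 ± 0.17, and the X centre lay below the arms together by -0.38, -0.65 and -0.45, or -0.49 ± 0.14 (SD, n = 3). The read level of a bin in the Dam::EMR-1 libraries was lower in the X centre than in the arms by -0.07, -0.28 and -0.16 on the log2(CPM + 1) scale. In the GFP::Dam libraries it was higher in the X centre by 0.25, 0.27 and 0.25. The groups did not overlap in this difference (exact two-sided permutation p = 0.1, the smallest possible). Without the outermost 1 Mb at each end of X, the difference in ratio was -0.22 ± 0.11.

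Against the autosome centres the X centre had the higher mean ratio over bins, though not the higher ratio of read shares (below). Those bins averaged -1.23 ± 0.20, and the X centre lay above them by 0.59, 0.40 and 0.39, or 0.46 ± 0.12 (SD, n = 3). Here the Dam::EMR-1 libraries had a higher level in the X centre, by 0.39, 0.24 and 0.23, and the GFP::Dam libraries a slightly lower one, by -0.09, -0.07 and -0.09 (exact two-sided permutation p = 0.1, the smallest possible). The order among chromosomes was not uniform. The centres of I, II and III had mean ratios of -1.74, -1.43 and -2.24 and lay below the X centre, by 0.97 ± 0.22, 0.66 ± 0.22 and 1.47 ± 0.22. The centre of IV, at -0.78, differed from the X centre by 0.01 ± 0.12, which is within the replicate spread. The centre of V, at -0.42, lay above it, the difference being -0.35 ± 0.04. With bins of 100 kb in place of 10 kb the difference from all autosome centres was 0.10 ± 0.09. By read share the order was reversed. The log2 ratio of the shares was -0.72, -0.90 and -0.64 in the autosome centres, or -0.76 ± 0.13 (SD, n = 3). In the X centre it was lower in each replicate, at -0.92, -1.11 and -0.93. This order was not uniform among chromosomes either. The value was -1.12 ± 0.12 in the centre of I and -1.07 ± 0.22 in that of II. It was -0.29 ± 0.09 in III, -0.66 ± 0.06 in IV and -0.70 ± 0.17 in V (SD, n = 3 each). The centre of I lay below the X centre in each replicate and the centre of II in the mean, at -1.07 against -0.99.

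**Figure D2:**
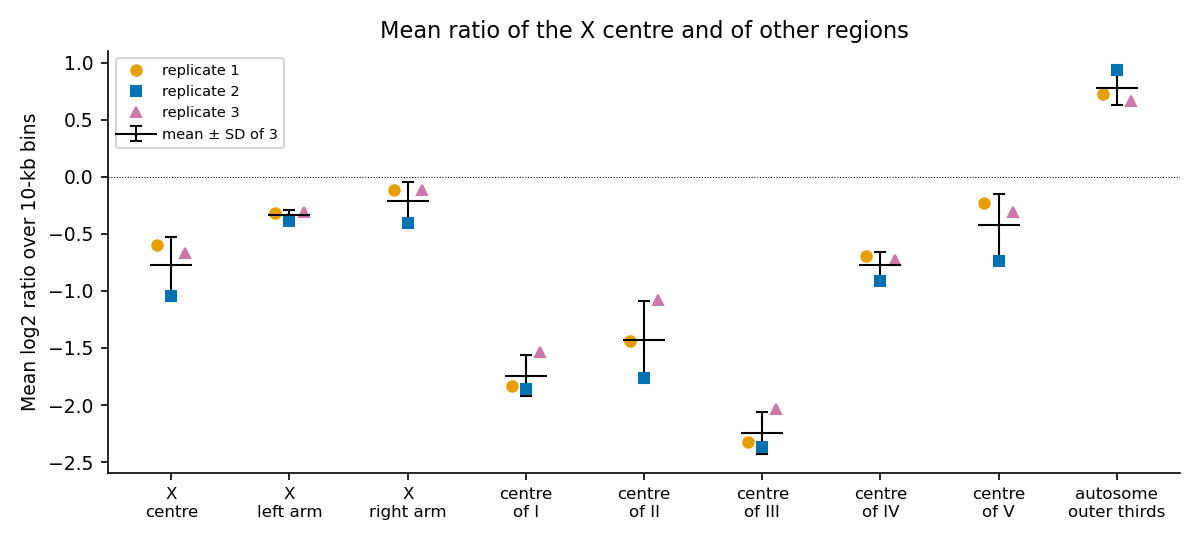
Mean log2 ratio over 10-kb bins (vertical axis) of the X centre, both X arms, the middle part of each autosome and the outer parts of the autosomes, with 1 symbol per replicate and a bar for the mean ± SD of 3. The X centre, at -0.77, lies below both X arms, beside the centre of IV at -0.78, and above the centres of I, II and III.

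Among single bins of the X centre, depleted ones outnumbered enriched ones and the largest class was called in neither direction. Enriched bins numbered 88 of 634 (13.9%), where 28.4% of all tested 10-kb bins were enriched. Depleted bins numbered 190 (30.0%), where 25.2% of all were depleted, and 356 (56.2%) were not called, against 46.4% of all. With total-read scaling the counts were 131 enriched and 156 depleted. Leaving out replicate 1 or replicate 3 cut the enriched bins to 53 and 51. In 2-kb bins, 241 of 2723 (8.85%) were enriched against 19.2% of all, and 506 (18.6%) were depleted against 17.2%. In bins of 100 kb, 7 of 62 (11.3%) were enriched against 36.9% of all, and 35 (56.5%) were depleted against 38.0%. The 7 enriched ones became 4 without replicate 1 or without replicate 3. Counted by libraries alone, every Dam::EMR-1 library lay above every GFP::Dam library on the log2(CPM + 1) scale in 181 bins (28.5%, against 41.3% of all). Every Dam::EMR-1 library lay below in 210 bins (33.1%, against 26.3% of all).

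The ratios of the replicates were correlated over the bins of the X centre. Pearson's r between replicate ratios, given as a description over 634 bins that share libraries and depth, was 0.76, 0.78 and 0.75 for the 3 pairs. The sign was the same in all 3 replicates in 455 bins (71.8%), a share that was not computed over all bins of the genome. At 2 kb, where a bin holds fewer reads, r was 0.61 to 0.63, and over the 62 bins of 100 kb it was 0.89 to 0.92. Bin ratios within the X centre had an SD of 2.75, against 3.38 in the autosome centres and 2.96 in the X arms, and reached from -9.62 to 5.97.

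**Figure D3:**
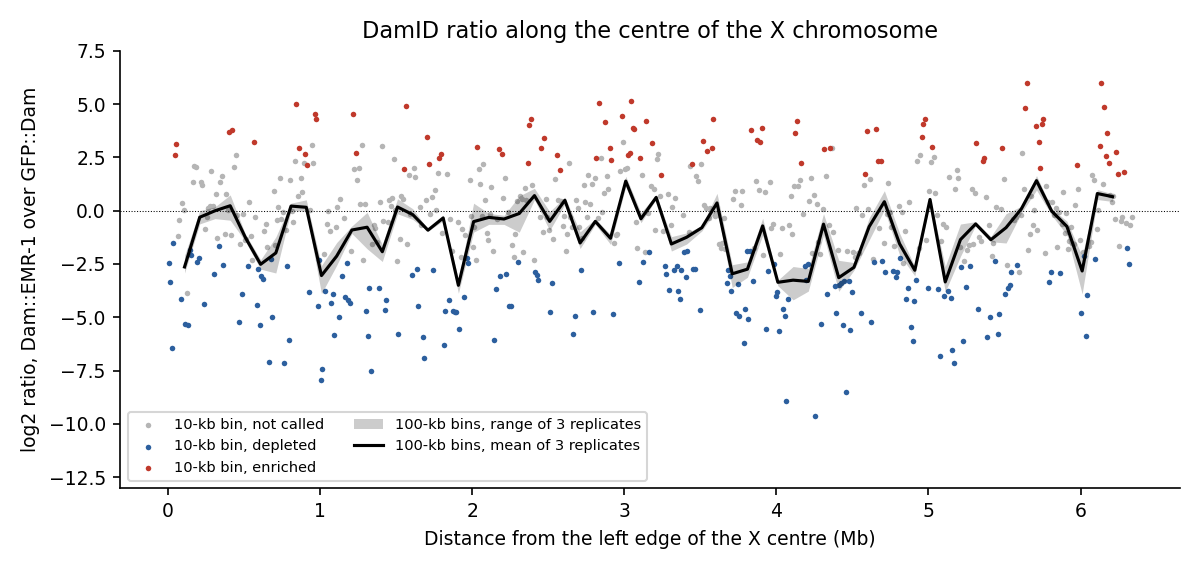
Mean log2 ratio of each 10-kb bin (points, coloured by call) along the X centre, with the 100-kb bins as a line (mean of 3 replicates) and a grey band (their range); the horizontal axis is the distance from the left edge of the interval in Mb. The 190 depleted and 88 enriched bins occur along the whole interval, often next to bins of the same call, and the 100-kb line lies mostly below 0, with its peaks at 1.39 and 1.41.

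The mean ratio of stretches of the interval varied. Of 6 stretches of about equal length, the lowest was X:10370001-11430000, with -1.41, -1.86 and -1.09 in the replicates (-1.45 ± 0.39, SD, n = 3) and 40 depleted against 11 enriched bins of 106. The highest was X:8260001-9320000, with 0.30, -0.31 and 0.07 (0.02 ± 0.31) and 21 depleted against 22 enriched bins. The other 4 ranged from -1.09 to -0.32. Both were picked by these same means, so they are a description. Among 100-kb bins the lowest was X:8000001-8100000, at -3.87, -3.24 and -3.39 (-3.50 ± 0.33, adjusted p = 2.04e-12, limma). The highest were X:11800001-11900000 at 1.64, 1.61 and 0.97 (1.41 ± 0.38, adjusted p = 2.26e-05) and X:9100001-9200000 at 1.61, 1.12 and 1.42 (1.39 ± 0.25, adjusted p = 8.88e-06).

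The lowest 10-kb bin of the X centre was X:10390001-10400000, over pkn-1, a homologue of protein kinase N. It held 59, 16 and 1860 reads in the Dam::EMR-1 libraries and 65190, 56463 and 58475 in the GFP::Dam libraries, for a mean ratio of -9.62 ± 3.76 (adjusted p = 0.00267, limma). The Dam::EMR-1 library of replicate 3 stood well above the other two there, yet all 3 lay far below every GFP::Dam library. The next was X:10200001-10210000, over nucb-1 (nucleobindin) and sex-1, with 497, 37 and 300 reads against 54330, 55412 and 50575 (-8.93 ± 2.09). The bin X:10590001-10600000, over sdn-1 (syndecan, a heparan sulfate proteoglycan), held 10, 19 and 514 reads against 11817, 9971 and 10549. The other two lowest bins covered clec-86, alh-10 and lam-2 at X:7140001-7150000 (-7.96 ± 4.12) and coh-1 and mek-1 at X:7470001-7480000 (-7.50 ± 3.79).

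Enriched bins reached smaller ratios and smaller read numbers. The bin X:12270001-12280000, over otpl-8 (a member of the otopetrin-like family) and C04B4.6, held 6488, 2421 and 3603 reads in the Dam::EMR-1 libraries and 47, 36 and 29 in GFP::Dam, for a ratio of 5.97 ± 0.68 (adjusted p = 0.00132, limma). The bin X:11780001-11790000, over Y102F5A.1, also averaged 5.97, from 512, 237 and 78 reads against 0, 0 and 8, and its SD of 2.85 was far wider. The bin X:9180001-9190000 held 2611, 842 and 584 reads against 57, 4 and 22 (5.15 ± 1.24). The bin X:8970001-8980000 had a ratio of 5.03 ± 0.80 and X:6980001-6990000 one of 5.02 ± 1.76. These bins, like the lowest ones, were picked by their ratios, so their values are a description.

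The GFP::Dam libraries differed more between bin classes than the Dam::EMR-1 libraries did. The median depleted bin of the X centre had a mean level of 22.0 CPM in Dam::EMR-1 and 179 CPM in GFP::Dam. The median enriched bin had 110 CPM in Dam::EMR-1 and 8.02 CPM in GFP::Dam. Depleted bins elsewhere in the genome had 11.4 CPM in Dam::EMR-1 and 138 CPM in GFP::Dam, so both medians were higher in the X centre. These levels describe the bins the calls chose and carry no test.

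Neighbouring bins of the same call formed short domains. Runs of at least 2 neighbouring bins gave 21 enriched domains over 510 kb (8.04% of the X centre) and 46 depleted domains over 1310 kb (20.7%). The longest domain of either kind was 50 kb. Genes and 2-kb bins inside a domain use the same reads as the 10-kb bins that defined it, so their values describe the domains and do not test them. Over the whole genome such domains covered 22.3% (enriched) and 17.8% (depleted) and reached 200 kb. In the arms of X they covered 13.4% and 18.0%, with enriched ones up to 90 kb, and in the autosome centres 12.2% and 29.6%, with depleted ones up to 200 kb. The correlation between neighbouring bins, a description over 633 pairs, was 0.40 in the X centre and 0.57 over all 9836 pairs. Of 128 neighbouring pairs in the X centre in which both bins were called, 13 (10.2%) were called in opposite directions, close to the 9.92% of all such pairs.

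The longest enriched domain was X:9160001-9210000. It held 1183, 1166 and 1528 CPM in the Dam::EMR-1 libraries and 93.2, 48.0 and 154 CPM in GFP::Dam, for a mean ratio of 3.64 ± 0.62 (SD, n = 3). The groups lay far apart, and 20 of its 21 bins of 2 kb had a ratio above 0. Of the 9 genes tested within it 8 were enriched, among them tsp-11, a tetraspanin, at 3.83 ± 1.26 (adjusted p = 0.000998, limma). The gene tmbi-4, of the TMBIM family of membrane proteins, crosses its left edge and had a ratio of 1.95 ± 1.50 (adjusted p = 0.0379). Neither tsp-11 nor tmbi-4 passed edgeR's quasi-likelihood test on summed reads, with Benjamini-Hochberg adjusted p of 0.0705 and 0.0728, and the call of tmbi-4 was also lost without replicate 1 (adjusted p = 0.26) and without replicate 2 (adjusted p = 0.0666).

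The domain X:11860001-11900000 (3.40 ± 0.80) held 521, 596 and 601 CPM in Dam::EMR-1 and 34.0, 29.0 and 99.6 CPM in GFP::Dam. Within it stha-3 had 3586, 1085 and 489 reads in Dam::EMR-1 and 1, 44 and 27 in GFP::Dam (ratio 5.40 ± 1.99, adjusted p = 0.000429, limma). Also enriched there were dot-1.2, related to the DOT1 histone methyltransferases, at 3.67 ± 0.40, and ule-5 at 4.16 ± 1.89. The gene mes-1, which encodes a receptor-like protein that polarises the EMS blastomere and its neighbour, crosses the left edge of this domain. It had 1448, 1251 and 844 reads in Dam::EMR-1 and 690, 493 and 930 in GFP::Dam, with a ratio of 1.11 ± 0.22 that did not pass the test (adjusted p = 0.145).

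The domain X:12290001-12330000 (3.33 ± 0.63) contained dot-1.3, with 1402, 2631 and 2081 reads in Dam::EMR-1 against 13, 2 and 3 (ratio 4.47 ± 1.14, adjusted p = 0.000442, limma). It also held the chemoreceptor gene srd-40, at 3.53 ± 2.02, and srd-45, of the same family, crosses its right edge and was at 3.06 ± 0.91. The homeobox gene ceh-40 inside the same domain was not called, at -3.56, -1.79 and 2.53 in the 3 replicates. The domain X:11090001-11120000 (3.93 ± 0.99) contained grd-1, of the groundhog branch of hedgehog-related genes, at 3.01 ± 0.59 (adjusted p = 0.00183), and clc-17, of the claudin-like family, at 2.68 ± 1.12. One further gene inside it was depleted. The domain X:8500001-8530000 (3.51 ± 0.14) contained grd-4 at 2.53 ± 2.43, and flp-5, a gene of FMRFamide-like peptides across its right edge, was at 3.15 ± 1.23. In edgeR's test the adjusted p was 0.0734 for srd-40, 0.284 for clc-17 and 0.115 for grd-4. With limma the call of srd-45 was lost without replicate 3 (adjusted p = 0.0616). That of clc-17 was lost without replicate 1 (0.067) or 2 (0.0964), and that of grd-4 without replicate 2 (0.19) or 3 (0.209), all adjusted p.

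Of the depleted domains 3 shared the greatest length of 50 kb, and the lowest mean ratio among them was that of X:10550001-10600000. This domain held 101, 110 and 213 CPM in the Dam::EMR-1 libraries and 1478, 1469 and 1417 CPM in GFP::Dam, for a ratio of -4.82 ± 0.74 (SD, n = 3), and all 19 tested bins of 2 kb in it lay below 0. Its gene sdn-1 had 3, 20 and 105 reads in Dam::EMR-1 and 4256, 4114 and 4569 in GFP::Dam (ratio -7.59 ± 1.33, adjusted p = 2.07e-05, limma). The gene syd-2, which encodes liprin-α, an organiser of presynaptic active zones, crosses the left edge and had a ratio of -2.39 ± 0.12 (adjusted p = 0.00283). The bromodomain gene bet-2 was at -3.30 ± 1.04, a call lost without replicate 3 (adjusted p = 0.0533), and nhx-5, of the sodium-proton exchanger family, was at -1.62 and not called.

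**Figure D4:**
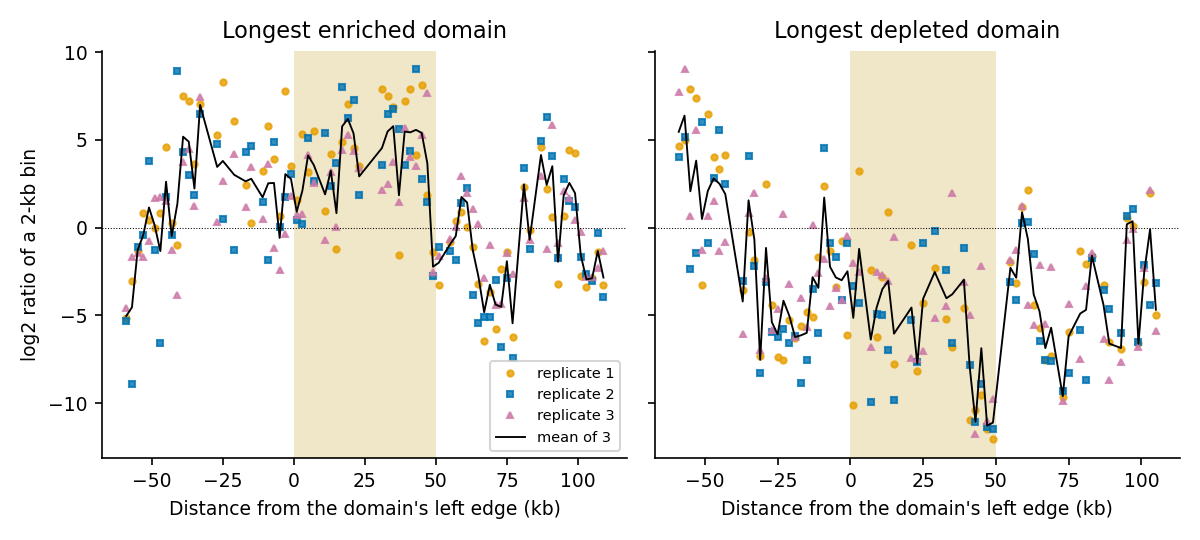
Log2 ratio of 2-kb bins (vertical axis) within and around the longest enriched domain (left) and the lowest of the 3 longest depleted domains (right) of the X centre; the horizontal axis is the distance from the domain's left edge in kb, shading marks the 50 kb of each domain, symbols are the 3 replicates and the line is their mean. In the enriched domain 20 of 21 bins lie above 0, and in the depleted domain all 19 lie below it.

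The domain X:9920001-9970000 (-3.95 ± 0.53), also 50 kb long, held 208, 204 and 191 CPM in Dam::EMR-1 against 2492, 2190 and 2084 CPM in GFP::Dam. It contained ugt-23, a UDP-glucuronosyltransferase gene, at -6.60 ± 0.39 (adjusted p = 1.39e-05, limma), and cysl-1, a cysteine synthase-like gene that acts in the response to hypoxia, at -3.88 ± 0.85. Also in it lay nra-3 at -3.82 ± 1.18, while mgl-1, a metabotropic glutamate receptor gene across its right edge, had 1.40 and was not called. The domain X:6720001-6770000 (-3.76 ± 0.43), of the same length, contained mdl-1, a partner of the Max-like bHLH factors, with 1599, 1146 and 336 reads in Dam::EMR-1 and 24470, 28356 and 19156 in GFP::Dam (ratio -6.79 ± 0.81, adjusted p = 1.14e-05). The anion transporter gene abts-4 in the same domain was at -3.49 ± 0.31.

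The domain X:10180001-10220000 (-5.66 ± 2.56) contained sex-1, myrf-2, related to the vertebrate myelin regulatory factor, at -4.31 ± 0.94, and nucb-1 at -4.04 ± 1.11. Its level was 51.3, 6.23 and 145 CPM in Dam::EMR-1 and 3448, 3839 and 3274 CPM in GFP::Dam. In 1 of its 4 bins the recovered reads had more than 1 solution. The domain X:7120001-7160000 (-5.53 ± 1.90) contained lam-2, the laminin γ chain of basement membranes, with 384, 11 and 1573 reads in Dam::EMR-1 and 27837, 24579 and 22032 in GFP::Dam (ratio -5.94 ± 0.94, adjusted p = 1.39e-05, limma). The aldehyde dehydrogenase gene alh-10 was at -4.49 ± 0.56 and ist-1, a homologue of insulin receptor substrate, at -1.87 ± 1.13. In edgeR's test nucb-1 had an adjusted p of 0.192. The call of ist-1 was lost with total-read scaling (adjusted p = 0.0816), without replicate 2 (0.11) and without replicate 3 (0.255).

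Genes were measured as the mean ratio over the GATC sites in the gene body and 500 bp on each side, so close neighbours share sites. Of 1075 protein-coding genes in the X centre, 1046 had a listed site and 1000 had at least 60 reads. Enriched genes numbered 183 (18.3%), against 30.2% of all 18650 tested genes, and depleted genes 255 (25.5%), against 27.2%, while 562 (56.2%) were not called, against 42.6%. The median ratio was 0.00 in the X centre, -0.01 in the X arms and 0.31 over all tested genes. With total-read scaling 231 genes were enriched and 226 depleted. EdgeR's test on reads summed over a gene's sites called 86 enriched and 202 depleted genes.

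Among well-covered genes of the X centre the lowest ratio belonged to snrp-40.1, which encodes a component of the spliceosome. That gene had 2, 0 and 5 reads in Dam::EMR-1 and 3871, 3070 and 4308 in GFP::Dam (ratio -8.17 ± 0.33, adjusted p = 1.14e-05, limma). Next to sdn-1, mdl-1 and ugt-23 in this class stood ldb-1, which encodes a binding partner of LIM-domain factors. It had 1130, 262 and 490 reads against 18397, 20255 and 19042 (-6.80 ± 0.33, adjusted p = 9.91e-06). The lysosomal membrane protein gene lmp-1 (-6.51 ± 0.36), the tyrosine breakdown gene fah-1 (-6.34 ± 0.61) and the proline synthesis gene pycr-1 (-6.26 ± 1.07) followed, together with B0272.3 and F08G12.3. These genes were picked as the lowest, with all replicates on 1 side of 0, so their values are a description.

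The highest ratios of the X centre lay mostly on genes with no common name. T25B6.1 had 1462, 721 and 541 reads in Dam::EMR-1 and 0, 3 and 2 in GFP::Dam (ratio 5.70 ± 0.52, adjusted p = 0.00016, limma). The collagen gene col-178 had 2756, 66 and 1116 reads against 22, 5 and 19 (5.58 ± 2.07, adjusted p = 0.000464), from only 2 sites. otpl-8 had 2208, 1754 and 1156 reads against 2, 3 and 35 (5.19 ± 0.34, adjusted p = 0.000139). C04B4.6, F54F7.2, C04B4.4, B0563.10 and Y81B9A.4 completed the 10 highest with stha-3 and dot-1.3, at 4.40 to 4.86 for these 5. B0563.10 did not pass edgeR's test (adjusted p = 0.11).

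Genes of known roles were taken from hand-picked lists, of which the X centre held those below. Their counts are to be read against 30.2% enriched and 27.2% depleted among all tested genes. Among tested genes of the X centre the shares were 18.3% and 25.5%. The lists are small, so their counts are descriptions. The sex determination and dosage compensation list had 3 tested genes in it, 2 depleted and 0 enriched, with a median ratio of -2.98 against -2.96 for all 24 tested genes of the list. The nuclear receptor gene sex-1, an X-linked signal that reports the number of X chromosomes, had 364, 21 and 43 reads in Dam::EMR-1 and 10738, 9405 and 6589 in GFP::Dam (ratio -6.10 ± 1.46, adjusted p = 4.11e-05, limma). The gene sdc-2, whose product brings the dosage compensation complex to X, had 14, 566 and 156 reads against 1250, 962 and 1893 (-2.98 ± 1.01, adjusted p = 0.00454), and an adjusted p of 0.0729 in edgeR's test. In both genes all Dam::EMR-1 libraries lay below all GFP::Dam libraries, as they did in 26.3% of all tested 10-kb bins. That share was not computed over genes. The gene xol-1, the male-promoting switch that SEX-1 represses, had 31, 111 and 70 reads against 62, 79 and 87, which overlap (-0.29 ± 0.74, adjusted p = 0.782).

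Of the endoderm and intestine list, the lineage most directly tied to EMS, 12 genes were tested in the X centre, with 4 depleted and 0 enriched. Over all tested genes 27.2% were depleted and 30.2% enriched. The median ratio of the 12 was -1.02, against -0.64 for all 38 tested genes of the list in the genome. The gene elt-2, the GATA factor that maintains intestinal identity, had 363, 452 and 151 reads in Dam::EMR-1 and 1094, 1610 and 723 in GFP::Dam (ratio -3.33 ± 1.09, adjusted p = 0.00293, limma). Its neighbour elt-4, a small GATA factor of the same tissue, had 81, 3 and 55 reads against 1962, 1248 and 1863 (-5.98 ± 1.49, adjusted p = 0.000145). All 3 Dam::EMR-1 libraries lay below all GFP::Dam libraries in both genes, an order found in 26.3% of all tested 10-kb bins and not counted over genes. The cathepsin B-like protease gene cpr-6 was at -5.42 ± 0.28 (adjusted p = 5.99e-05). The ETS factor gene ets-4 was at -1.69 ± 0.65 (adjusted p = 0.0375), and its call was lost with total-read scaling (adjusted p = 0.0688) and without replicate 1 (0.128), 2 (0.141) or 3 (0.0532). The vitellogenin gene vit-1, expressed in the adult intestine, had 0.37 and was not called.

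The gene med-1, a GATA factor of the EMS blastomere itself, lies near the right end of the interval at X:12430609-12431133 and has 1 listed GATC site within 500 bp. That site held 129, 152 and 117 reads in Dam::EMR-1 and 25, 52 and 64 in GFP::Dam, so the groups did not overlap. All Dam::EMR-1 libraries lay above all GFP::Dam libraries in 41.3% of all tested 10-kb bins too, a share that was not computed over genes or single sites. The ratios of med-1 were 1.73, 1.19 and 0.70 (1.21 ± 0.52), which did not pass the test over all genes (adjusted p = 0.234, limma). The site lies just outside the annotated gene, and the names of the tables carry "med1p", which is not explained. Whether reads at this site came from another copy of the sequence or from a construct in the strains was not tested. Outside the interval, the gene unc-84 at X:13584775-13589821, which encodes a SUN-domain protein of the inner nuclear membrane, was depleted in the same fit, at -2.84, -3.72 and -2.97 (adjusted p = 0.0052).

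Of the body wall muscle list 11 genes were tested, with 5 depleted and 1 enriched and a median ratio of -1.25, against -0.17 for all 54. The depleted ones were dim-1, an immunoglobulin-domain protein of muscle, at -4.60 ± 0.82 (adjusted p = 0.000114, limma), unc-98, a zinc-finger protein of muscle attachment sites, at -4.08 ± 0.22, and the troponin genes mup-2 (troponin T, -2.74 ± 0.96) and unc-27 (troponin I, -2.77 ± 0.66). The Hand-type bHLH gene hnd-1, which acts early in mesoderm, was at -2.81 ± 0.94 (adjusted p = 0.0184). In edgeR's test unc-98 had an adjusted p of 0.0864 and hnd-1 of 0.21. The call of mup-2 was lost without replicate 2 (adjusted p = 0.0608) and that of hnd-1 without replicate 3 (adjusted p = 0.104). The enriched gene was him-4, which encodes the secreted protein hemicentin, with 9105, 13732 and 7156 reads in Dam::EMR-1 and 2373, 3130 and 4185 in GFP::Dam (ratio 1.40 ± 0.73, adjusted p = 0.0245). Its call was lost in edgeR's test (adjusted p = 0.176), without replicate 1 (0.0987) and without replicate 2 (0.104). The troponin T genes tnt-2 and tnt-3, at 0.40 and 0.58, were not called.

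The pharynx list had 2 tested genes in the X centre. The called one, glo-1, is known for the gut granules of the intestine and not for the pharynx: its Rab GTPase is needed to form these lysosome-related organelles. It had 4032, 1116 and 1126 reads in Dam::EMR-1 and 32364, 26701 and 26226 in GFP::Dam (ratio -4.09 ± 0.75, adjusted p = 4.7e-05, limma). The pharyngeal myosin gene myo-2 was at 0.39, -0.70 and 1.24 and not called (adjusted p = 0.68).

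Of the neuron list 14 genes were tested, with 3 depleted, 1 enriched and 10 not called. The dopamine receptor gene dop-3 had 3939, 2111 and 1960 reads in Dam::EMR-1 and 3, 7 and 3 in GFP::Dam (ratio 3.61 ± 1.29, adjusted p = 0.00137, limma). The depleted genes were syd-2 (above), unc-115, an actin-binding protein of axon guidance, at -2.84 ± 0.33 (adjusted p = 0.000991), and mec-7, the β-tubulin of touch receptor neurons, at -4.10 ± 1.34 (adjusted p = 0.0015). For mec-7 the reads were 30, 348 and 23 against 1543, 384 and 864, and the adjusted p was 0.0644 in edgeR's test. The median ratio of the 14 genes was 0.28, against 1.20 for all 92 tested genes of the list.

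Of 6 tested timing and signalling genes, 3 were depleted and 0 enriched, the median ratio being -1.66, against -2.89 for all 45. They were mom-1, the Porcupine homologue needed for the Wnt signal that EMS receives, at -3.17, -2.78 and -3.42 (-3.12 ± 0.33, adjusted p = 0.00285, limma), bar-1, a β-catenin, at -2.65 ± 0.53, and lin-14, a regulator of larval timing, at -2.36 ± 1.04. For lin-14 the reads were 11106, 2640 and 7292 in Dam::EMR-1 and 14126, 14209 and 14420 in GFP::Dam. The single housekeeping gene of the X centre, eef-1A.2, which encodes the translation elongation factor 1α, had 26, 104 and 379 reads against 8082, 6418 and 11166 (ratio -6.16 ± 0.65, adjusted p = 1.7e-05). Of the 3 tested genes of the epidermis list 0 were called, though the junction gene ajm-1, at -1.09 (adjusted p = 0.0602), passed in edgeR's test (adjusted p = 0.00998). The X centre held 0 genes of the germline list, of the nuclear periphery list and of the cytosolic ribosomal proteins.

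**Figure D5:**
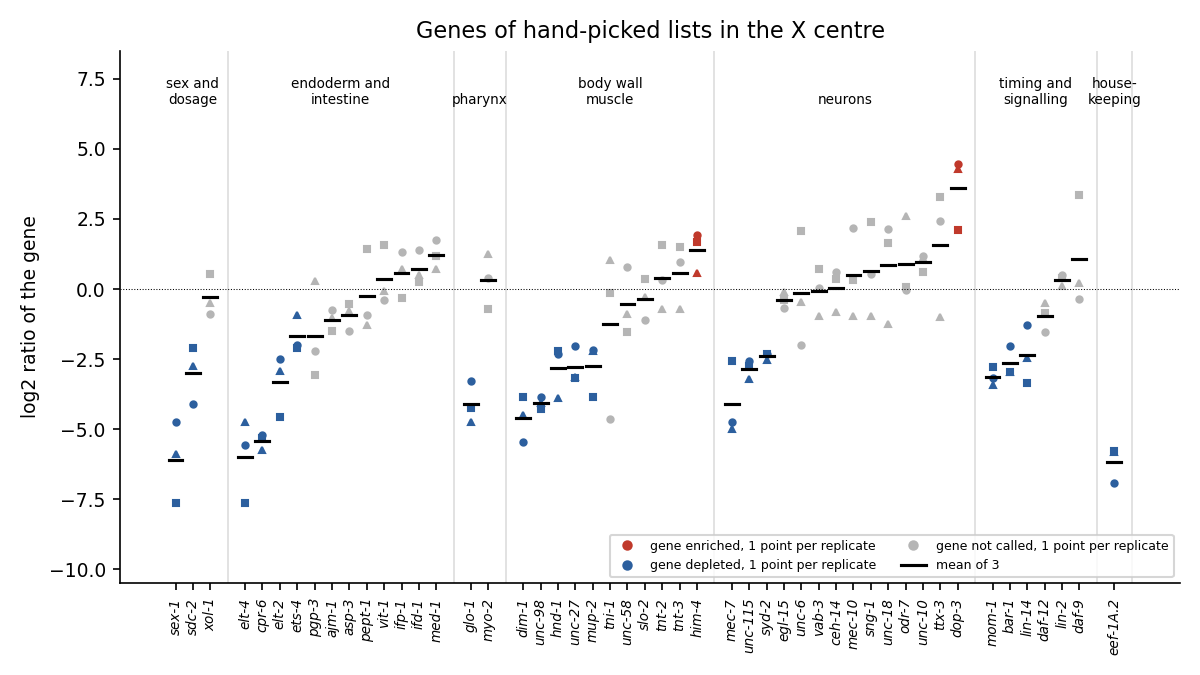
Log2 ratio (vertical axis) of genes of 7 hand-picked lists that lie in the X centre, with 1 point per replicate, a bar for the mean of 3 and colours for the call. The 2 enriched genes are him-4 at 1.40 and dop-3 at 3.61, and the lowest means are those of eef-1A.2 at -6.16 and sex-1 at -6.10.

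Gene families were recognised by their symbols, and their counts stand beside the 30.2% enriched and 27.2% depleted among all tested genes. Of 19 neuropeptide and amine receptor genes 8 were enriched and 0 depleted, where the median ratio was 1.93 (all 123 tested in the genome had 2.002). Besides dop-3 they included npr-9, with 1696, 309 and 208 reads in Dam::EMR-1 and 85, 2 and 10 in GFP::Dam (ratio 2.89 ± 0.95, adjusted p = 0.00866, limma; 0.091 in edgeR's test). The receptor gene aexr-3 was also called, at 2.43 ± 0.32, but its summed reads of 1339, 6261 and 1132 against 1654, 1086 and 3931 overlap and gave -0.27 in edgeR's test (adjusted p = 0.809). With total-read scaling 12 of the 19 were enriched, and in edgeR's test 3. Of 10 chemoreceptor genes 6 were enriched and 1 depleted, or 4 and 1 in edgeR's test and 6 and 0 with total-read scaling. Their median ratio was 2.77, against 3.07 for all 1091 tested in the genome. The enriched ones included srd-46 (3.43 ± 1.02) and srd-47 (3.65 ± 1.56), which lie within 1 kb of each other and share sites.

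Of 18 ligand-gated ion channel genes 7 were enriched and 1 depleted, or 3 and 1 in edgeR's test, with a median ratio of 0.80 against 1.84 for all 102 tested in the genome. The highest-ranked, lgc-41, had 5744, 1609 and 3018 reads in Dam::EMR-1 and 93, 26 and 395 in GFP::Dam (ratio 3.59 ± 0.22, adjusted p = 0.000453, limma). The adjacent genes lgc-13 and lgc-14 were at 3.31 ± 1.30 and 2.84 ± 1.33, with adjusted p of 0.0797 and 0.0809 in edgeR's test, and the call of lgc-14 was lost without replicate 1 (adjusted p = 0.103). Of 15 peptide genes of the FLP, NLP and insulin-like families 4 were enriched and 2 depleted, the median ratio being 1.81, against 1.85 for all 132. The gene nlp-7 was at 3.48 ± 1.28, with an adjusted p of 0.118 in edgeR's test, and nlp-19 had 15, 0 and 0 reads against 148, 500 and 136 (-4.86 ± 1.58, adjusted p = 0.00134). With total-read scaling 8 peptide genes were enriched and 1 depleted. Of 9 potassium channel genes 3 were enriched and 2 depleted, or 2 and 1 in edgeR's test and 3 and 1 with total-read scaling. Their median ratio was 0.62, against 1.003 for all 70. The enriched ones included twk-44 at 3.37 ± 0.73 and kvs-1 at 2.82 ± 0.88, and the depleted ones kqt-1 at -4.04 ± 0.84.

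Other families had depleted members or few calls. Of 8 transthyretin-related genes 3 were depleted and 0 enriched, with ttr-31 at -4.92 ± 0.96 and ttr-30 at -4.98 ± 1.04. The third, ttr-59 at -2.59 ± 0.37, lies next to ttr-30, and their margins of 500 bp overlap. With gene bodies alone ttr-59 was at -0.11 (adjusted p = 0.919, limma), and 2 genes of the family were depleted. Its call was also lost without replicate 3 (adjusted p = 0.0523). In edgeR's test 3 of the 8 were depleted and 1 was enriched. Both C-type lectin genes were depleted, clec-266 at -4.83 ± 0.50 and clec-86 at -4.15 ± 1.66, where all 231 tested lectin genes of the genome had a median ratio of 3.10. By position clec-266 overlaps the potassium channel gene kqt-1, so their depleted calls may rest on shared sites. Of 5 nuclear hormone receptor genes 1 was depleted, nhr-137 at -2.56 ± 0.04, and 0 were enriched. Of 14 collagen genes 2 were enriched and 3 depleted, the latter including col-171 at -3.70 ± 2.67, whose call was lost without replicate 1 (adjusted p = 0.105). The 1 tested guanylyl cyclase gene and the 4 ceh homeobox genes were not called. Near-identical copies within these families may share reads, and how reads with several places in the genome were treated is not given in the sources used here.

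Transfer RNA genes were dense in the X centre, which held 117 of the 634 in the reference annotation (RefSeq, WBcel235). That is 18.5 per 100 bins, against 5.31 per 100 bins elsewhere. Of the 117, 35 (29.9%) lay in depleted and 12 (10.3%) in enriched bins, where elsewhere the shares were 28.4% and 18.3%. Of 17 microRNA genes 6 (35.3%) lay in depleted bins and 0 in enriched ones, against 37.6% and 21.1% elsewhere. Of 30 pseudogenes 10 (33.3%) lay in enriched and 3 (10.0%) in depleted bins, against 55.0% and 10.3% elsewhere.

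Bins of both calls had as many GATC sites as each other but differed in gene cover. The median depleted and enriched bins both had 18 listed GATC sites, and held 2.32 and 2.09 protein-coding genes on average. Genes covered 58.6% of the median depleted bin and 42.6% of the median enriched one, and 62.0% of the median bin that was not called. Elsewhere in the genome the median depleted bin also had more gene cover than the enriched one, at 72.0% against 57.3%. Across the 634 bins the ratio had a Pearson correlation of -0.10 with the number of GATC sites, -0.04 with the number of genes and -0.07 with the covered share. It had -0.34 with the log2 read sum, which is part of the same libraries, and all 4 values are descriptions. Among genes of the X centre, the 391 shorter than 2 kb had a median ratio of 0.38, with 86 enriched (22.0%) and 89 depleted (22.8%). Of all tested genes of that length 33.2% were enriched and 25.8% depleted. The 415 genes of 2 to 5 kb had a median of -0.29, with 58 enriched (14.0%) and 109 depleted (26.3%). Of all tested genes of that length 27.5% were enriched and 29.1% depleted. The 48 genes longer than 10 kb had a median of -0.42. Over all tested genes the shortest class had a median of 0.70 and the longest one of 0.34.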

How the data were processed

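Members and gene lists were chosen with earlier results of these data known. Tables at 4 resolutions were used (single GATC sites, 2 kb, 10 kb, 100 kb). The submitters' processing notes name build ce11 and DESeq2; the aligner is not given in the sources used here. Per the file headers, the authors deposited per entry 3 log2 ratios (1 per replicate number), 1 count of raw reads totalled over the 6 libraries, and 1 adjusted p-value, used as an alternative only. Judged by its values, a deposited log2 ratio is log2 of reads + 1 over reads + 1, shifted by a constant in each column. Whole reads per library were recovered from these (tolerance 4e-12 on the log2 scale) and checked on simulated data. Where several solutions remained, their mean was used. Single solutions covered 98.4% of the reads of all 10-kb bins and 94.8% of those at single GATC sites. Counting intervals were not computed, since PCR reads are not independent molecules.

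Gene positions came from RefSeq (WBcel235, the assembly that ce11 names). Ratios were tested with limma 3.58.1 (intercept only, variance trend on log2 reads, robust, two-sided, Benjamini-Hochberg over each whole table at 0.05), for entries with at least 60 reads. On simulated 10-kb bins the procedure was tested before use. Levels are log2(CPM + 1) of recovered reads. Alternatives were edgeR 4.0.16 and DESeq2 1.42.0 on recovered reads, a pseudocount of 5, total-read scaling, an adjusted p of 0.01, no read minimum, gene bodies alone and leaving out each replicate. Those for 100-kb bins were chosen after seeing the data. Named were the 5 longest domains per direction with up to 4 named genes each, the 5 highest and lowest bins, the 10 highest and lowest called genes above the median read number with all replicates on 1 side, genes of hand-picked lists, up to 3 called members per family, med-1 and unc-84; pkn-1 was named from its bin. R 4.3.3 was used.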

Additional observations from a re-analysis of the deposited data

Results flagged for a closer look

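In 6 comparisons of read levels, every Dam::EMR-1 library moved one way and every GFP::Dam library the opposite way. Values are means over 3 libraries of the difference in log2(CPM + 1), X centre minus the other region. Against the X arms the difference was -0.17 in Dam::EMR-1 and 0.26 in GFP::Dam, and against the right arm alone -0.34 and 0.17. Against the autosome centres it was 0.29 in Dam::EMR-1 and -0.083 in GFP::Dam. Against the centre of I it was 0.54 and -0.29, and against the centre of III 0.88 and -0.34. Against the centre of V it was -0.10 and 0.23. The exact two-sided permutation test of 3 libraries against 3 gave p = 0.1 in each, the smallest it can give, so none of the 6 can pass 0.05.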

How the results depend on the processing

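Of the counts by bin, those at 2 kb changed most with 1 replicate left out: against 241 enriched and 506 depleted bins, 42 to 55 and 175 to 240 were called. At 10 kb the enriched bins then numbered 51 to 61, against 88, and at 100 kb 4 to 7, against 7. At an adjusted p of 0.01 there were 32 enriched and 118 depleted bins of 10 kb, 9 and 104 of 2 kb, 3 enriched bins of 100 kb and 98 enriched genes. Total-read scaling gave 369 enriched 2-kb bins and a mean ratio of -0.16, and the authors' deposited p gave 364 enriched 2-kb bins. EdgeR called 139 enriched 2-kb bins and 86 enriched genes.

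Same-numbered libraries showed no shared deviation from their group means over the 10-kb bins, with correlations of -0.01, 0.01 and 0.01. Whether they were prepared together is not given in the sources used here. With the replicate block, edgeR called 29 enriched and 272 depleted 2-kb bins and 39 enriched and 157 depleted genes; at 10 kb it called 74 and 182, against 84 and 189 without the block. Of the 82 called genes that could be named, 29 lost their call with the block and 17 without it, besides aexr-3, which turned negative in edgeR, at -0.27, and at -0.73 with the block.

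With X cut at equal lengths, the difference from the arms was -0.68 and that from the autosome centres 0.32; without the tips the former was -0.22. Against I, II, III, IV and V alone the latter was 0.97, 0.66, 1.47, 0.0069 and -0.35, and 0.10 with 100-kb bins. Enriched and depleted domains numbered 42 and 116 from 2-kb bins, 5 and 23 at an adjusted p of 0.01, and 5 and 24 as runs of at least 3 bins. The cause of these changes was not tested. Of those 82 genes 47 held in all alternatives tried, and 14 were lost when 1 replicate was left out.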
